A study of Mus musculus with 4 samples.

Results

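Conventional type 1 dendritic cells (cDC1) were picked out of single-cell RNA sequencing of mouse ascites by the transcripts that mark them. A cell was chosen by at least 2 unique molecular identifiers (UMIs, counted cDNA molecules) of Xcr1 and Clec9a together. It also needed at least 200 detected genes, at most 33% mitochondrial UMIs, at most 2 UMIs of the maturation genes Ccr7 and Fscn1, at most 1 of Cd209a, at most 1 of the Cd3 chains, at most 2 of Cd79a and Cd79b, at most 1 of the C1q genes and at most 2 of Krt7, Krt8, Krt18 and Krt19. These limits found 882 cells among 25325 cells of the BTYNB and combination libraries. The whole series held 46342 deposited cells, of which 45178 passed the gene and mitochondrial limits. BTYNB gave 465 of the members and combination 417, whereas control held 25 and anti-PD-1 held 16.

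All cells came from ascites of C57BL/6 mice injected intraperitoneally with ID8-Trp53-/- cells, a Trp53-deficient mouse ovarian tumour line. Per the study's methods the mice were female and 6 weeks old, and the tumour cells carried a lentiviral infrared fluorescent protein. Treatment began after 7 days of engraftment, was given 2 times a week and ended at about 3 mL of ascites. Control mice received DMSO with an IgG2a isotype antibody, BTYNB mice the compound at 50 mg/kg with the isotype antibody, anti-PD-1 mice DMSO with an antibody blocking PD-1, and combination mice BTYNB with the PD-1 antibody. Each antibody was labelled as 100 ng per dose, while other amounts of both agents stand in the study's methods. BTYNB is a compound that inhibits Igf2bp1, a protein that binds mRNA. Cells of all animals of a treatment were pooled into 1 library, so there was no replicate check, no test between treatments was possible, and the intervals given here (95%) cover counting error only. The comparison of combination with BTYNB asks how cDC1 differed when PD-1 was blocked in BTYNB-treated mice.

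cDC1 are a dendritic cell lineage that takes up dying cells and presents their antigens on MHC class I to CD8 T cells, a process called cross-presentation. Their development depends on the transcription factors Irf8 and Batf3 and on the growth factor receptor Flt3. In tumours they are known as a source of interleukin-12 and of chemokines that attract T cells, and on maturation they switch on Ccr7, which guides them to lymph nodes.

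The libraries held 78603888 to 114600397 UMIs, and they differed in the smallest cell deposited, which had 869 UMIs in BTYNB and 5115 in combination. Libraries were therefore compared over cells with at least 5115 UMIs, which kept 381 cDC1 of BTYNB, all 417 of combination, 11 of control and 1 of anti-PD-1. At this floor the median cDC1 held 8190 UMIs and 2660 genes in BTYNB (range 5174 to 15303 UMIs) and 6823 UMIs and 2469 genes in combination (5116 to 13224). The median mitochondrial share was 5.93% and 5.79%. At most 4 cell barcodes were shared by any pair of libraries, and no cDC1 barcode was shared.

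The label of the cells held against markers that the rule did not use. At least 1 UMI of Irf8 was seen in 98.7% of cDC1 from BTYNB and 99.0% from combination after each cell was thinned to 5000 UMIs (99.2% and 99.8% unthinned), against 0.317% and 1.01% of tumour cells, whose median depth at the floor was 17973 and 11506 UMIs. Naaa, a lysosomal amidase, was found in 99.5% of both, and Wdfy4, which is needed for cross-presentation, in 99.0% and 98.3%. Sirpa, a marker of type 2 dendritic cells, was found in 0.787% and 0.719% of cDC1, shares at or under the background of 1.39% and 1.69% in tumour cells. The common leukocyte gene Ptprc had a UMI in 379 of 381 and 409 of 417 cells. T cell and neutrophil marker lists had no gene with 50 UMIs in cDC1, and their summed levels were 33.3 and 29.0 UMIs per 1000000 UMIs (CPM) in BTYNB and 32.0 and 6.34 CPM in combination. Markers of other cells were not all low. The monocyte and macrophage list, with 9 of 20 genes tested, summed to 1886 and 1943 CPM in cDC1 and to 911 and 926 CPM in tumour cells. Ccr2, which dendritic cells also carry, gave 868 and 1001 CPM of this. Lyz2, known from macrophages, had a UMI in 60.9% of BTYNB and 67.4% of combination cDC1 after thinning, unthinned 70.6% and 75.5%. In BTYNB its thinned share was 41.1% in Cd209a type 2 cells, 13.8% in mature dendritic cells, 98.3% in C1q macrophages and 2.85% in tumour cells. The NK cell list summed to 186 and 188 CPM, mostly of Klrk1 at 173 and 152 CPM, and the B and plasma cell list to 175 and 173 CPM, mostly of Ighm at 151 and 136 CPM. The part of these transcripts in the results was not tested.

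The 2 genes of the rule were mostly found together. Both Xcr1, the receptor for the chemokine Xcl1, and Clec9a, a receptor for dead cells, had a UMI in 350 of 381 BTYNB cells and 391 of 417 combination cells. Xcr1 alone was found in 14 and 17 cells, and Clec9a alone in 17 and 9. Just inside the limit, 13 BTYNB and 10 combination cells held exactly 2 UMIs of the pair. Just outside it, 17 and 13 cells held 1 UMI and met every other limit. The Irf8 level of these outside cells was 948 CPM for BTYNB and 1128 CPM for combination, beside 1138 and 904 CPM in the cells just inside. The cells just outside thus held Irf8 near the level of those just inside, while cells without either gene stood at 124 and 56.5 CPM. The keratin limit left out 22 BTYNB and 32 combination cells that met the other limits, and the C1q limit 17 and 37.

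Among all cells at the floor, cDC1 were 6.90% in BTYNB (381 of 5521, exact interval 6.25 to 7.60%) and 5.92% in combination (417 of 7042, 5.38 to 6.50%). With no floor the order turned, since cDC1 were then 2.54% of BTYNB cells (465 of 18283) while the combination share stayed at 5.92%. Over all depths the control and anti-PD-1 shares were 0.319% (0.207 to 0.471%) and 0.133% (0.0761 to 0.216%), from 25 and 16 cells. The tumour gate held 45.7% and 56.4% of cells at the floor in BTYNB and combination, which enter the denominator of the cDC1 share. Of the cells at the floor with a Ptprc UMI and at most 2 keratin UMIs, cDC1 were 17.9% (16.2 to 19.5%) in BTYNB and 22.1% (20.2 to 24.1%) in combination. With no floor this BTYNB share was 4.14% (446 of 10771). Of the cells at the floor in 3 dendritic gates, namely cDC1, Cd209a type 2 cells and mature Ccr7 Fscn1 cells, cDC1 were 52.8% in BTYNB (49.1 to 56.5%) and 62.4% in combination (58.6 to 66.1%). The size of the last difference depended on the depth floor. With the BTYNB floor raised to 6547 UMIs, its cDC1 were 61.9% of dendritic cells, beside 62.4% in combination. That floor was set in proportion to the median tumour depths over all depths, 14726.5 UMIs in BTYNB and 11506 in combination. With no floor the BTYNB share was 37.8%. The order held at these floors, by a narrow margin at the raised one, and higher floors were not tried.

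**Figure D1:**
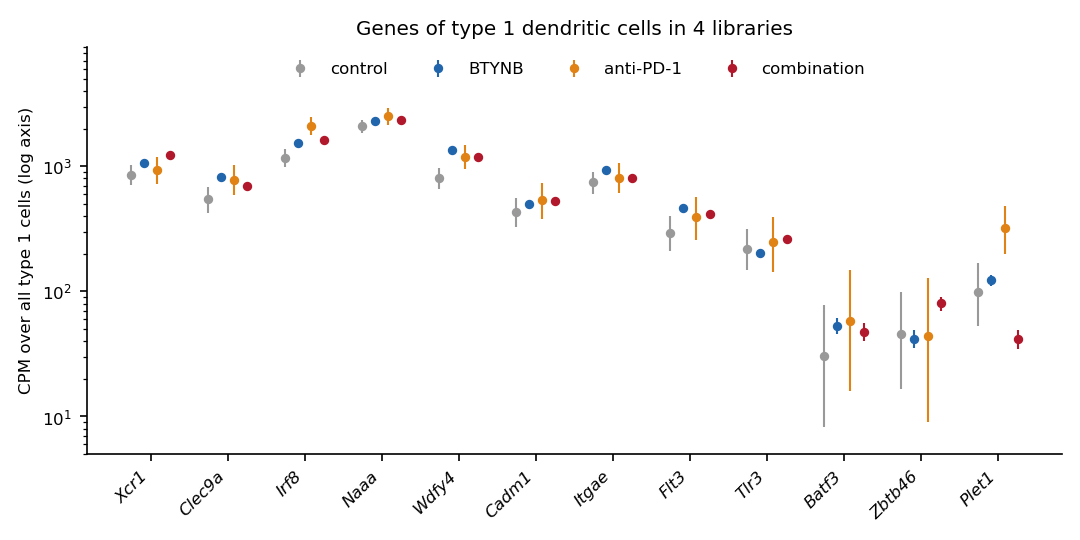
Level of 12 genes in type 1 dendritic cells of the 4 libraries, as CPM of UMIs summed over all members (log axis), with exact Poisson 95% intervals that cover counting error only; the control and anti-PD-1 points rest on 25 and 16 cells. Xcr1 and Clec9a chose the cells. Irf8 and Naaa stood above 1000 CPM in every library, Batf3 stood under 60 CPM, and Plet1 stood lowest in combination at 41.4 CPM.

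The transcription factors of the lineage stood at close levels in both libraries. Irf8 was measured at 1553 CPM (BTYNB) and 1630 CPM (combination), a log2 ratio of combination over BTYNB of 0.07 (0.01 to 0.13). Batf3 was measured at 50.6 and 47.7 CPM (−0.08, −0.42 to 0.25), and Id2, an inhibitor of E proteins, at 804 and 825 CPM (0.04, −0.04 to 0.12). The intervals of Batf3 and Id2 held 0. Zbtb46, a transcription factor of conventional dendritic cells, stood apart at 41.0 and 80.1 CPM (0.95, 0.65 to 1.28). Its thinned share was 17.8% of BTYNB cDC1 (14.1 to 22.1%) and 30.7% of combination cDC1 (26.3 to 35.4%), unthinned 26.8% and 38.1%, with 13.1% and 13.3% of tumour cells thinned. Spi1, a myeloid master regulator, was measured at 225 and 159 CPM (−0.50, −0.67 to −0.33). In the list of dendritic lineage regulators the median log2 ratio was −0.01 over 19 tested genes, 4 with an interval above 0 and 3 below, and the sign of this median changed in 2 of the alternative settings. Over all 8138 genes tested, those with at least 50 UMIs in both libraries together, the median was 0.03, and 13.9% had an interval above 0 and 9.66% one below.

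Of 34 genes known from cDC1, which include Irf8, Batf3, Id2 and Zbtb46 above, 33 were tested, with a median log2 ratio of −0.07, 6 intervals above 0 and 11 below. Tlr3, the endosomal sensor of double-stranded RNA, was measured at 214 (BTYNB) and 263 CPM (combination) (0.30, 0.15 to 0.45), and Tlr11, the sensor of profilin, at 105 and 117 CPM (0.15, −0.07 to 0.37). Itgae, the integrin chain CD103, was measured at 959 and 811 CPM (−0.24, −0.32 to −0.16). Btla, an inhibitory receptor of lymphocytes that cDC1 also carry, was measured at 484 and 373 CPM (−0.38, −0.49 to −0.26). Among these 4 receptors, Tlr3 was thus higher in combination, Itgae and Btla were lower, and the interval of Tlr11 held 0. Flt3 stood at 476 and 414 CPM (−0.20, −0.31 to −0.09), and the adhesion molecule Cadm1 at 508 and 527 CPM (0.05, −0.05 to 0.15). Cd8a, which marks the lymphoid-resident cDC1 of mice, was near its floor with 22 and 29 UMIs, or 6.78 and 9.68 CPM. The 2 genes of the rule lay on either side of 0, Xcr1 at 1096 and 1232 CPM and Clec9a at 802 and 698 CPM, which are given as a description.

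Against the other dendritic gates of the same library, most of these genes stood higher in cDC1. Of 31 cDC1 genes tested against the 224 BTYNB and 160 combination Cd209a type 2 cells, 25 were at least 2-fold higher in both libraries, where 4.39% of 7131 genes were (6.17% were at least 2-fold lower). Against the 116 and 91 mature cells 24 of 31 were, where 9.36% of 6772 genes were higher and as many lower. All gates were drawn on cells of these libraries and cDC1 genes travel together, so the counts describe the cells and are no test. Irf8 was measured at 1553 CPM in BTYNB cDC1 and 58.1 CPM in type 2 cells, and at 1630 and 45.2 CPM in combination. Cxcr3, the receptor for Cxcl9 and Cxcl10, stood at 62.3 against 1.19 CPM in BTYNB, and at 65.1 CPM against no UMI in combination. Dnase1l3, a secreted DNase, stood at 284 against 4.74 CPM and at 248 against 2.77 CPM. Both were far higher in cDC1 than in type 2 cells in each library, as were Gpr141b, Gcsam and Rasgrp3. The lectins Mgl2, Clec10a and Mrc1, with the short-chain fatty acid receptor Ffar2 and Sirpa, stood on the other side, Mgl2 at 29.0 against 1343 CPM in BTYNB and 22.03 against 1389 CPM in combination.

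Mature cells differed from cDC1 in other genes. Wdfy4 stood higher in cDC1, at 1334 against 54.9 CPM in BTYNB and 1182 against 57.2 CPM in combination. Naaa did too, at 2381 against 115 and 2347 against 95.4 CPM. Antigen-processing lists went both ways, given here as median log2 ratios of cDC1 over mature cells in BTYNB and combination. MHC class II stood at 1.15 and 0.83, and MHC class I and peptide loading at −0.47 and −0.46. Cross-presentation and uptake stood at −0.20 and −0.33, and lysosomal proteases at −0.67 and −0.68. Ccl5, a T cell chemokine, stood at 10.8 CPM in cDC1 against 6124 CPM in mature cells of BTYNB, and at 25.03 against 4879 CPM in combination. Ly75, the endocytic receptor DEC-205, was the only list member at least 2-fold lower in cDC1 than in mature cells of both libraries, at 93.7 against 342 CPM and 84.1 against 208 CPM. Id2 and Nfil3 also stood lower in cDC1 than in mature cells in both, by less than 2-fold. Col1a1, Col1a2 and Pdgfra, which are fibroblast genes, were among those furthest below the mature gate, and Ptprc had a UMI in 106 of 116 and 74 of 91 of its cells, so that gate was not purely of leukocytes. The part of such cells in these differences was not tested.

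**Figure D2:**
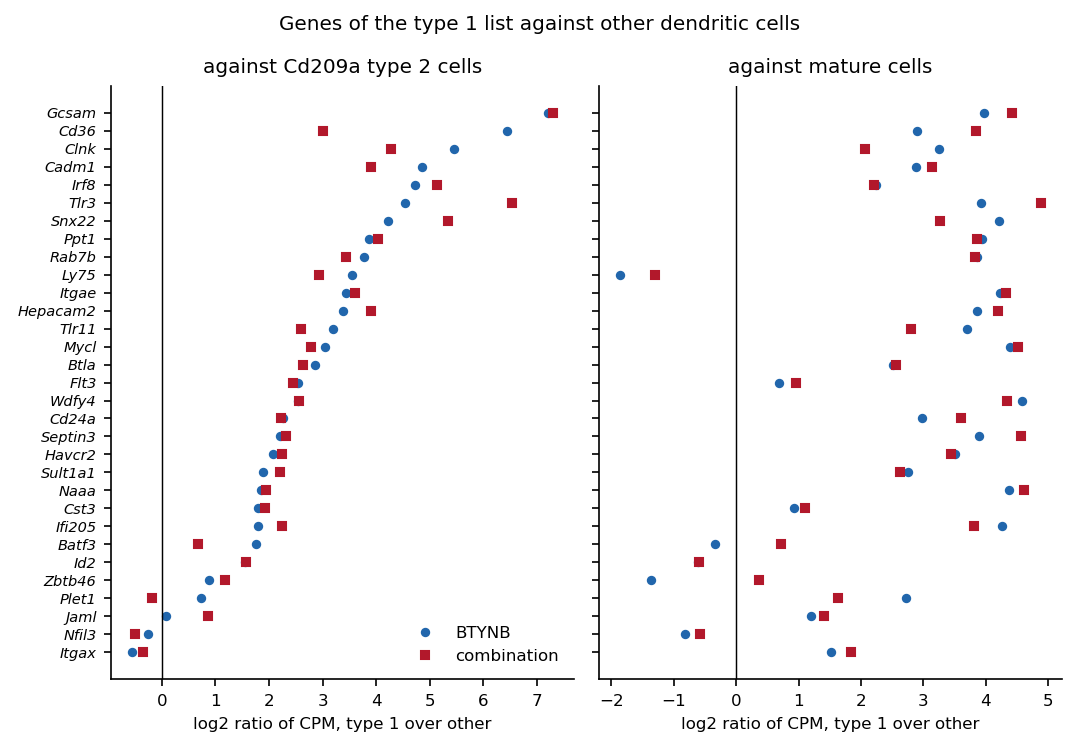
log2 ratio of CPM of type 1 cells over Cd209a type 2 cells (left) and over mature Ccr7 Fscn1 cells (right) for 31 genes of the cDC1 list, in BTYNB (circles) and combination (squares), with a pseudocount of 1 CPM. Most points lie right of 0 in both panels, with 25 genes at least 2-fold higher against type 2 cells and 24 against mature cells in both libraries, while Ly75 lies furthest left of 0 against mature cells.

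Genes of DNA replication and mitosis stood higher in combination than in BTYNB cDC1. All 30 tested S phase genes had a log2 ratio above 0, with a median of 0.73 and 26 intervals above 0. All 33 tested G2/M genes did too, with a median of 0.62 and 28 intervals above 0. Of all 8138 genes tested, 55.1% had a ratio above 0 and 13.9% an interval above 0. Pcna, the sliding clamp of DNA polymerase, was measured at 274 (BTYNB) and 416 CPM (combination) (0.60, 0.48 to 0.73), and Mcm2, a subunit of the replicative helicase, at 16.95 and 37.4 CPM (1.10, 0.66 to 1.63). Pclaf, a Pcna partner, was measured at 195 and 350 CPM (0.84, 0.70 to 0.99). These replication genes were each higher in combination by more than their counting error. Of the mitotic genes, Mki67 was measured at 176 and 287 CPM (0.71, 0.56 to 0.87), Top2a, which untangles chromosomes, at 218 and 329 CPM (0.59, 0.45 to 0.73), and the motor gene Kif11 at 29.9 and 63.1 CPM (1.05, 0.72 to 1.45). Cenpf, of the kinetochore, had the largest ratio of the G2/M list at 20.04 and 49.1 CPM (1.25, 0.86 to 1.74).

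The same lists had median log2 ratios above 0 in the other gates, at 0.70 (S) and 1.03 (G2/M) in type 2 cells, 0.54 and 0.79 in mature cells, 0.23 and 0.26 in C1q macrophages, and 0.18 and 0.26 in tumour cells. The difference between gates was not tested. Most of these genes, 25 of 30 and 26 of 33, stood at a higher CPM in tumour cells than in cDC1, where 4575 of all 8138 genes did. Tumour transcripts were also higher in combination cDC1, as given further on. Over the 5 and 7 genes that were not above the tumour level the medians were 0.72 and 0.59. The part of tumour RNA in the other genes was not tested. In all members of the 4 libraries the S list summed to 2897 CPM (control), 1101 CPM (BTYNB), 2500 CPM (anti-PD-1) and 1794 CPM (combination), and the G2/M list to 7302, 2454, 5392 and 3785 CPM. BTYNB was the lowest of the 4 on both lists, and the control and anti-PD-1 values came from 25 and 16 cells.

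**Figure D3:**
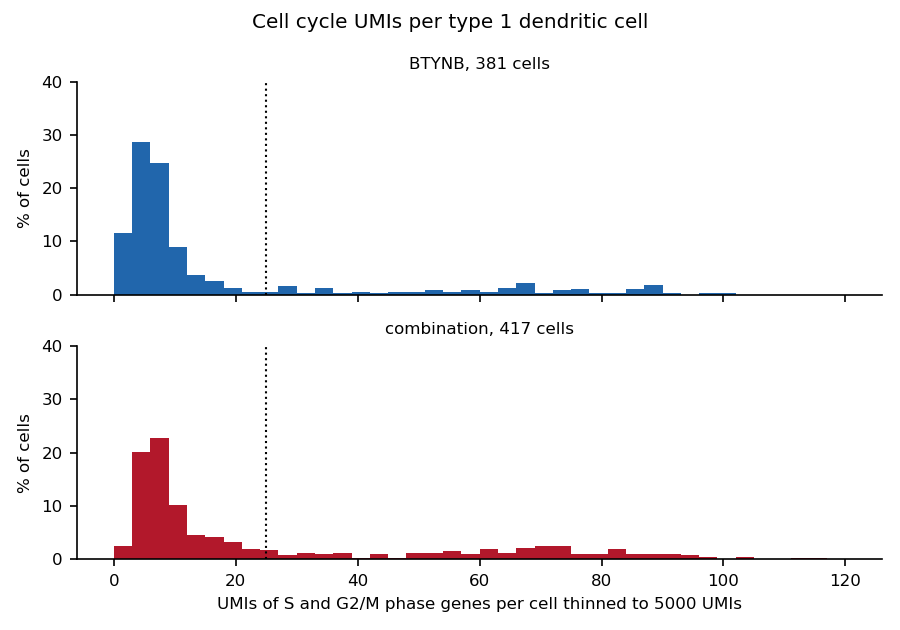
UMIs of the S and G2/M lists in each type 1 dendritic cell thinned to 5000 UMIs, as percent of the cells of BTYNB (381) and combination (417); the dotted line is the limit of 25 UMIs. Both libraries have a main peak under 20 UMIs and a long tail, which holds 17.6% of BTYNB and 30.9% of combination cells.

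Cell by cell, the cycle transcripts formed a main body and a long tail. The median thinned cDC1 held 6 UMIs of the 68 genes in BTYNB (quartiles 4 and 12, highest 99) and 10 in combination (6 and 39, highest 115). A limit of 25 UMIs, set after the distribution was seen, put 67 of the 381 BTYNB cells in the tail (17.6%, 13.9 to 21.8%) and 129 of the 417 combination cells (30.9%, 26.5 to 35.6%), with 13 and 18 cells between 20 and 30 UMIs. A limit of 20 gave 19.4% and 32.9%, and a limit of 30 gave 16.0% and 28.5%. The class is a range of a score and not a cell type. With only the cDC1 under 25 UMIs, the median log2 ratio of the S list was 0.55 and that of the G2/M list 0.79. The cycle lists thus also stood higher in combination outside the tail. The part of tumour RNA in these cells was not tested. Mki67 had a UMI in 20.2% of thinned BTYNB cDC1 (16.3 to 24.6%) and 36.9% of combination cDC1 (32.3 to 41.8%), unthinned 22.8% and 39.6%, beside 21.5% and 27.8% of thinned tumour cells, which cycle themselves.

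Depth and cycle went together, so the tail was also counted within depth. Cells in the tail held a median of 9650 UMIs in BTYNB and 7916 in combination, beside 7772 and 6500 in the others. Under 7000 UMIs the tail held 5 of 90 BTYNB cells (5.56%, 1.83 to 12.5%) and 39 of 228 combination cells (17.1%, 12.5 to 22.6%). From 7000 to under 9000 UMIs it held 10.9% (6.48 to 16.9%) and 37.7% (29.6 to 46.3%), and from 9000 UMIs 33.3% (25.5 to 42.0%) and 74.5% (60.4 to 85.7%). The combination share was higher in each depth class, and in the lower class the 2 intervals overlapped slightly. The same UMI range may not be the same cell size in both libraries, since cDC1 and tumour cells at the floor held more UMIs in BTYNB. Whether depth or cell size differed was not tested.

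**Figure D4:**
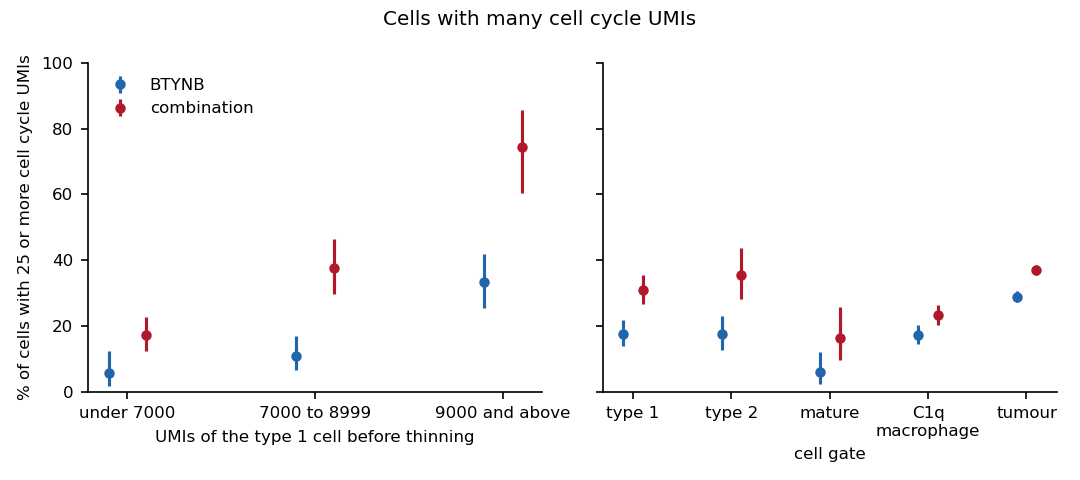
Percent of cells with 25 or more S and G2/M UMIs after thinning to 5000 UMIs, with exact binomial 95% intervals, in BTYNB and combination: type 1 dendritic cells by their depth (left) and all cells at the floor of 5 gates (right). The combination share lies above BTYNB in each depth class, up to 74.5% from 9000 UMIs, and in each gate.

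Promoter sequences are shown for genes of these lists because the cell cycle lists share short elements that the choice of the cells did not use. Sequences are from RefSeq on GRCm38.p6, 250 bases before to 50 after the start of each gene, 1 promoter a gene, and 27 of the S phase, 31 of the G2/M and 11 of the MHC class II genes matched. One element is that of the E2F factors, searched as TTTCCCGC, TTTGGCGC or TTTCGCGC on both strands. It was found in 9 of the 27 S phase promoters (33.3%), in 1 of the 31 G2/M promoters and in 1.91% of all 27025 promoters. The cell cycle homology region (CHR), searched as TTTGAA on both strands, was found in 23 of the 31 G2/M promoters (74.2%), in 5 of the 27 S phase promoters (18.5%) and in 18.1% of all. CTGATTGG, the Y box of MHC class II promoters, contains the reverse complement of CCAAT and was found in 4 of the 11 MHC class II promoters (36.4%), 10 of the 31 G2/M promoters (32.3%), 6 of the 27 S phase promoters (22.2%) and 4.31% of all. A match describes letters and is not a bound site. The windows below run 5′ to 3′ on the strand of the gene with the matches in capitals, E2F in Pclaf, Mcm5 and Pola1, CHR in Mki67 and Kif11, and the Y box in H2-Aa and H2-Eb1. Mcm5 holds 2 E2F matches that overlap, and Mki67 holds 2 CHR matches.
Pclaf, chr9:65890307-65890336 (plus strand): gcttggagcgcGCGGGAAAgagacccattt
Mcm5, chr8:75109347-75109376 (plus strand): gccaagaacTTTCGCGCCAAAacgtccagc
Pola1, chrX:93632275-93632304 (minus strand): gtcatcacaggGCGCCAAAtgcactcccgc
Mki67, chr7:135716469-135716498 (minus strand): gaaTTTGAAccgccgttttggTTTGAAtcg
Kif11, chr19:37376351-37376380 (plus strand): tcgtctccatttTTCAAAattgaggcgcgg
H2-Aa, chr17:34287856-34287885 (minus strand): aagagaattttCTGATTGGttctggcgagt
H2-Eb1, chr17:34305794-34305823 (plus strand): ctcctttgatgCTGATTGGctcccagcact

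MHC class II genes were among the highest of cDC1 and were lower in combination than in BTYNB. Of 13 tested genes, 11 had an interval below 0, where 9.66% of all genes did, and the median log2 ratio was −0.20. Cd74, the invariant chain that guides class II molecules, was measured at 13529 (BTYNB) and 9691 CPM (combination) (−0.48, −0.50 to −0.46). The thinned cell held a median of 68 Cd74 UMIs in BTYNB (quartiles 56 and 81) and 49 in combination (40 and 56). Ctss, the protease that trims the invariant chain, was measured at 1231 and 871 CPM (−0.50, −0.57 to −0.43), and Ifi30, a lysosomal thiol reductase, at 931 and 703 CPM (−0.41, −0.49 to −0.33). These 3 genes of class II trafficking and loading were lower by more than H2-Aa and H2-Ab1. H2-Aa stood at 9070 and 7954 CPM (−0.19, −0.21 to −0.16) and H2-Ab1 had a ratio of −0.12. Marchf1, which ubiquitinates class II and removes it from the surface, had a ratio of −0.36. Ciita, the class II transactivator, was measured at 326 and 305 CPM (−0.10, −0.23 to 0.03), an interval that held 0, as did that of H2-DMb1. The list median was −0.19 in type 2 cells and −0.24 in C1q macrophages, and 0.19 in mature and 0.32 in tumour cells. Among cDC1 with few cycle UMIs it was −0.16. Over all members of each library the list summed to 29702 CPM (control), 46917 CPM (BTYNB), 39267 CPM (anti-PD-1) and 39902 CPM (combination). BTYNB was the highest of these, and the control and anti-PD-1 values came from 25 and 16 cells.

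The MHC class I list, which serves cross-presentation, had a median of −0.05 over 23 genes, with 1 interval above 0 and 6 below. B2m, the light chain of class I, stood at 2779 and 2681 CPM (−0.05, −0.10 to −0.01), and the peptide transporter gene Tap1 at 618 and 637 CPM (0.04, −0.05 to 0.13). Of 24 tested genes of cross-presentation and uptake, 4 had an interval above 0 and 8 one below, with a median of −0.14. Lysosomal proteases had a median of −0.08 over 19 genes, with 3 intervals above 0 and 7 below.

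**Figure D5:**
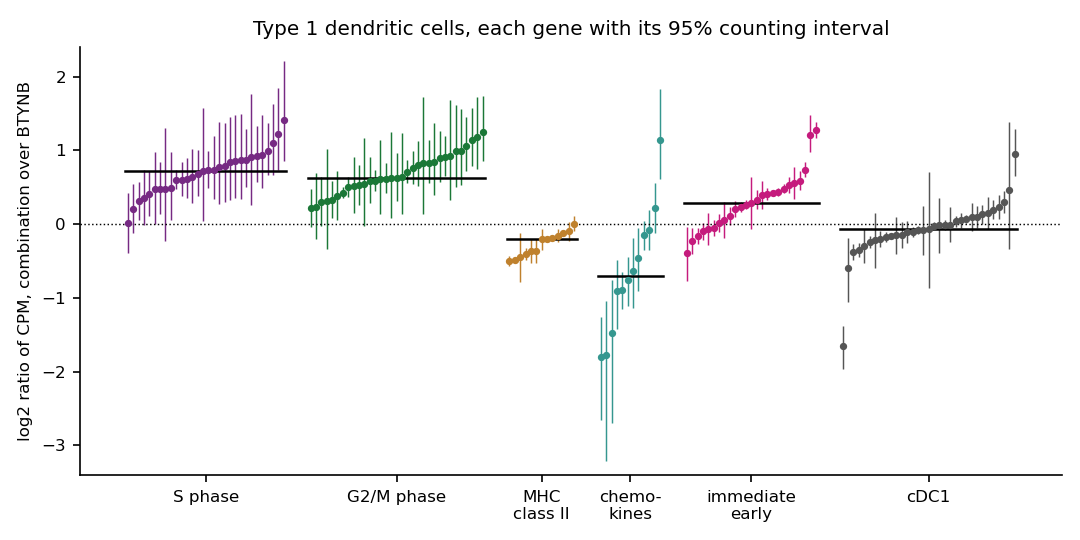
log2 ratio of CPM of combination over BTYNB for the tested genes of 6 lists in type 1 dendritic cells, each with its 95% counting interval and sorted within its list, with the list median as a black bar. The S and G2/M genes lie at or above 0 (medians 0.73 and 0.62), the MHC class II genes lie close together with a median of −0.20, and the chemokines spread widely around −0.70.

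Expression within cDC1 also differed by cycle state. Against the other cDC1 of their own library, cells at or above 25 cycle UMIs had a median log2 ratio of −0.42 in BTYNB and −0.35 in combination over 31 cDC1 genes, beside −0.01 and −0.02 over all 5995 genes tested. Of the 31 genes, 28 were below 0 in both libraries, as were 2236 of all 5995 genes. An interval below 0 in both was seen for 16 of the 31, where 8.22% of all genes had one. Both states were cut from the same cells, so this is a description. Cadm1 was measured at 224 CPM in tail cells and 583 CPM in the others in BTYNB, and at 309 and 646 CPM in combination. Ly75 was measured at 39.8 and 108 CPM in BTYNB and at 45.7 and 105 CPM in combination. Itgae stood at 732 and 1019 CPM and at 549 and 953 CPM. These surface genes were lower in the tail cells of each library. Irf8 was also lower in the tail, at 1368 against 1602 CPM in BTYNB (−0.23, −0.33 to −0.12) and 1487 against 1707 CPM in combination (−0.20, −0.29 to −0.11). Id2 stood higher in the tail, at 1043 and 741 CPM and at 872 and 799 CPM. For MHC class II the medians were −0.25 and −0.31, with 8 of 13 intervals below 0 in both.

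Chemokines were low in cDC1, and 8 of 12 tested had an interval below 0 in combination against BTYNB, where 9.66% of all genes did, with a median of −0.70. Ccl4, an inflammatory chemokine, was measured at 128 (BTYNB) and 68.8 CPM (combination) (−0.89, −1.15 to −0.65), found in 128 and 95 cells. Cxcl9, which attracts T cells through Cxcr3, was measured at 37.9 and 19.7 CPM (−0.91, −1.42 to −0.49), but 39 of its 123 BTYNB UMIs lay in 1 cell. Ccl5 lay the other way at 10.8 and 25.03 CPM (1.14, 0.62 to 1.84), with 22 of 35 and 25 of 75 UMIs in 1 cell each. The BTYNB cell with the 39 Cxcl9 UMIs held 31 of 95 Cxcl2 UMIs, and another BTYNB cell held 82 of 219 Ccl6 and 31 of 45 Ccl9 UMIs. With at least 3 UMIs of the rule's genes required, the list median was −0.31. Of 20 tested chemokine and growth factor receptors, 3 had an interval above 0 and 9 one below. Among them Ccr2 was measured at 868 and 1001 CPM (0.20, 0.13 to 0.28), and Cxcr4 at 21.9 and 10.3 CPM (−1.01, −1.74 to −0.45).

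Maturation genes were low and gave no common direction. The rule left out cells with more than 2 Ccr7 and Fscn1 UMIs, so low levels were partly set by the choice of cells. The mature list had a median of 0.12 over 18 tested genes, with 3 intervals above 0 and 3 below. Il12b, the p40 chain of interleukin-12, had 24 UMIs in BTYNB and 53 in combination, or 7.40 and 17.7 CPM (1.15, 0.54 to 2.02), with 12 of the 53 in 1 cell. Its thinned share, with intervals that overlapped, was 1.31% (0.427 to 3.04%) and 2.88% (1.496 to 4.97%), unthinned 3.67% and 4.08%, beside 0 of 2525 BTYNB tumour cells, which allows a share of up to 0.119%, and 0.0252% of combination tumour cells. The costimulatory ligands Cd86 and Cd80, which engage CD28, were measured at 263 and 208 CPM (−0.34, −0.49 to −0.19) and at 32.1 and 21.7 CPM (−0.54, −1.03 to −0.10). The costimulatory list had a median of −0.27 over 10 genes, with 1 interval above 0 and 4 below. Cd274, which encodes the PD-1 ligand PD-L1, was measured at 119 (BTYNB) and 72.8 CPM (combination) (−0.71, −0.96 to −0.47). It was found in 31.2% (26.6 to 36.2%) and 23.02% (19.1 to 27.4%) of thinned cells, unthinned 44.4% and 30.5%, beside 5.54% and 8.25% of thinned tumour cells. Entpd1, the ectonucleotidase CD39, was measured at 89.7 and 141 CPM (0.64, 0.43 to 0.87).

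Interferon lists gave small medians in both directions. Type I interferon-stimulated genes had a median of −0.05 over 25 genes, 4 intervals above 0 and 6 below. Mx1, an antiviral GTPase, stood at 24.7 and 43.4 CPM (0.79, 0.40 to 1.24). The interferon-gamma list had a median of 0.17 over 20 genes, and of −0.08 without the 10 genes that stood above cDC1 in tumour cells. Cholesterol and lipid genes had a median of 0.39 over 18 genes, with 9 intervals above 0 and 2 below.

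Immediate early genes, which respond within minutes to signals and to handling, had a median of 0.28 over 25 genes, with 15 intervals above 0 and 3 below. Jun was measured at 314 (BTYNB) and 759 CPM (combination) (1.27, 1.17 to 1.38), Fos at 2696 and 3612 CPM (0.42, 0.38 to 0.46), and Klf2, a factor of quiescence and migration, at 407 and 679 CPM (0.74, 0.64 to 0.84). Egr1, Egr2 and Ppp1r15a lay below 0, at −0.16, −0.40 and −0.22. The list median was 0.24 in type 2 cells, 0.23 in mature cells and 0.11 in C1q macrophages. In tumour cells it was −0.07, with 3 intervals above 0 and 17 of 25 below. It was 0.06 over the 13 genes not above the tumour level. Klf2 was among these 13, with 27.7 and 29.1 CPM in tumour cells.

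Genes at least 2-fold apart were few, with 161 higher (1.98% of 8138) and 34 lower (0.418%) in combination. Of the 161 higher genes, 154 (95.7%) stood at a higher level in tumour cells than in cDC1 of the same library. Of all 8138 genes tested, 4575 did. Upk3b, of the mesothelium and the tumour line, had 18 UMIs in BTYNB and 92 in combination cDC1, or 5.55 and 30.7 CPM, beside 645 and 612 CPM in tumour cells. Sparc, a matrix protein, was measured at 24.4 and 103 CPM in cDC1 and 1818 and 1824 CPM in tumour cells. Meis2, Gstm1 and Aldh1a1 behaved alike, with log2 ratios of 2.61, 2.55 and 2.09. The tumour marker list had 8 of 9 tested genes with an interval above 0 and a median of 1.74 in cDC1, 1.26 in type 2 cells, 1.11 in mature cells and 1.34 in C1q macrophages, against −0.04 in the tumour cells themselves. Its summed level in cDC1 was 1307 CPM for BTYNB and 1566 CPM for combination, and 2 and 1 of its 16 genes were at 0. The part of tumour RNA in the higher genes was not tested.

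Among the 3563 genes not above the tumour level, 7 were at least 2-fold higher and 24 lower. The 7 were Gm14636, Mfsd12, Mier2, Esco2, of sister chromatid cohesion, at 14.8 and 34.4 CPM (1.16, 0.71 to 1.74), Il12b, Ccl5 and Nfatc2ip.

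The genes lower in combination held metallothioneins and 2 surface genes. Mt1, a metal-binding protein, was measured at 394 (BTYNB) and 125 CPM (combination) (−1.65, −1.83 to −1.49), and Mt2 at 74.9 and 11.0 CPM (−2.66, −3.34 to −2.24). In type 2 cells, mature cells and C1q macrophages the Mt1 ratio was −0.61, −0.69 and −1.06, and that of Mt2 −0.09, −0.59 and −1.26. In tumour cells the Mt1 and Mt2 ratios were 0.07 and −0.30. Mt1 was seen in 69.0% of thinned cDC1 from BTYNB (64.1 to 73.6%) and 37.9% from combination (33.2 to 42.7%), unthinned 80.1% and 45.6%, beside 42.0% and 43.3% of tumour cells. Tumour cells held Mt1 at 176 and 184 CPM themselves, so their share is no background level for cDC1. The part of tumour RNA in Mt1 was not tested. Plet1, a surface protein of migratory dendritic cells of gut and skin, was measured at 132 and 41.4 CPM (−1.65, −1.97 to −1.38), and Tdgf1, a coreceptor of the Nodal ligand, at 61.7 and 13.7 CPM (−2.09, −2.69 to −1.68). Plet1 had a UMI in 22.8% (18.7 to 27.4%) and 12.0% (9.03 to 15.5%) of thinned cells, unthinned 26.5% and 14.4%, beside 2.69% and 3.47% of tumour cells. Tdgf1 had one in 14.96% (11.5 to 18.9%) and 4.80% (2.95 to 7.31%), unthinned 17.8% and 5.52%, and in no thinned tumour cell, which allows up to 0.119% and 0.0755%. Both genes were found in the same thinned cell in 14 of 381 BTYNB and in 0 of 417 combination cells, which allows up to 0.719%. Plet1 was found in 87 of these BTYNB and 50 of these combination cells, and Tdgf1 in 57 and 20. Whether the joint counts differ from those of unlinked genes was not tested. In all members of control and anti-PD-1, Plet1 stood at 98.6 CPM (52.5 to 169) and 320 CPM (200 to 484), from 13 and 22 UMIs. Type 2 cells held Plet1 at 78.8 and 47.04 CPM, and Tdgf1 at 0.593 CPM in BTYNB and at no UMI in combination.

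Trim25, a ubiquitin ligase of antiviral signalling, was lower at 146 and 71.8 CPM (−1.01, −1.26 to −0.79), and Ifitm1, an interferon-induced membrane protein, at 41.9 and 8.01 CPM (−2.25, −3.08 to −1.75). In type 2 cells, mature cells and C1q macrophages the Trim25 ratio was −0.59, −0.83 and −0.45, and that of Ifitm1 −1.56, −2.40 and −2.31. In tumour cells the Trim25 and Ifitm1 ratios were −0.19 and 0.28. Some genes on the lower side rested on single cells. Of 118 Retnla UMIs in BTYNB, 115 lay in 1 cell, the cell with the Ccl6 and Ccl9 UMIs above, which also held 182 of 1116 Lyz2 and 24 of 56 Pltp UMIs and 2 UMIs of the rule's genes. Retnla, Lyz2 and Pltp are known from macrophages. Lyz2 was not confined to that cell, with a UMI in 269 BTYNB and 315 combination cDC1. Another cell held 104 of 125 Hspa1b UMIs, and without the top cell of each library its log2 ratio turned from −1.30 to 0.91. A further cell held 26 of 57 Siglech UMIs, a plasmacytoid gene, and 1 more 29 of 41 Cd7 UMIs.

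Transcripts of the drug targets were scarce in cDC1. Igf2bp1 had 2 UMIs in BTYNB and 1 in combination, or 0.617 CPM (0.0747 to 2.23) and 0.334 CPM (0.00845 to 1.86), beside 9.22 and 11.7 CPM in tumour cells. No UMI of Pdcd1, the PD-1 gene, was found in either, which allows up to 0.925 and 1.001 CPM. Myc, an mRNA known to be bound by Igf2bp1, had 27 and 71 UMIs, or 8.32 (5.48 to 12.1) and 23.7 CPM (18.5 to 29.9), beside 156 and 180 CPM in tumour cells, and the part of tumour RNA in it was not tested.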

How the data were processed

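Cells were captured on a BD Rhapsody system, and per the study's methods and labels the authors counted UMIs with the vendor's pipeline, with GRCm39 named in the submitters' processing notes. They deposited 1 matrix of raw UMI counts per library, without replicates, and these whole-number counts were used as deposited. The gene names are those of the files. Cells, genes and lists were chosen with earlier results of these data known. Counts of the members were summed per library and divided by all UMIs (CPM). Log2 ratios used a pseudocount of 1 CPM and genes with at least 50 UMIs in both libraries together, with exact conditional binomial intervals at 95%. Levels have exact Poisson and shares exact Clopper-Pearson intervals. For shares with a UMI and cycle UMIs, each cell at or above 5115 UMIs was thinned to 5000 UMIs without replacement. A count of 0 was given an upper limit of 3 counts. Gates of the other cells were at least 2 Cd209a UMIs (type 2), 3 Ccr7 and Fscn1 UMIs (mature), 3 C1q UMIs (macrophage) and 3 keratin UMIs (tumour), with the other limits as for the members. Doublets were removed by the gates alone, and an alternative left out the 5% of cells with the highest scrublet score, which held 7 BTYNB and 3 combination cDC1; scrublet's own threshold marked 3.05% and 0.511% of cells. Named genes were the list members and, by the interval bound nearest 0, the 15 highest and 15 lowest genes, without mitochondrial, ribosomal and unnamed genes, and in each list up to 4 with the largest ratio and 2 with the highest level. The 15 genes furthest apart in each direction were also named for cDC1 against the other dendritic gates. Other list members named here, such as Pcna, Top2a, Egr1 and Tap1, were chosen after their values were seen. The scripts ran in Python 3.11.15 with scipy 1.17.1 and scanpy 1.11.5 and were tested on simulated data.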

Additional observations from a re-analysis of the deposited data

How the results depend on the processing

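No paired analysis was possible because each group is 1 pooled library. Of the values that answer a comparison, 73 stayed within their counting interval or within 1.5 times their count and 13 did not, and of 2613 values of single genes and other lists 2580 kept their direction. Without a UMI floor, cDC1 were 2.54% of all and 37.8% of dendritic cells of BTYNB. With the BTYNB floor raised to 6547 UMIs, they were 61.9% of its dendritic cells. The 161 genes at least 2-fold higher became 104 among cells with few cycle UMIs, 44 with a pseudocount of 10 CPM, 957 with no minimum, 18 with at least 200 UMIs and 7 without genes above the tumour level. The 34 lower genes became 58 with no floor and 7, 254 and 5 with the same pseudocount and minima. The MHC class II median was −0.16 among cells with few cycle UMIs. Medians changed sign for the cDC1 genes (0.015, few cycle UMIs), the dendritic regulators (0.0092 with the raised floor and 0.0092 with few cycle UMIs), and, without genes above the tumour level, interferon-gamma (−0.078) and tumour markers (−0.28). Single genes with an interval off 0 that changed sign were Ccl9 (0.19, at least 3 UMIs of the rule's genes), Cd7 (0.24, raised floor), Ctsl (−0.026, no floor), Ppt1 (0.018, few cycle UMIs), Lyz2 (0.13, at least 3 UMIs of the rule's genes, and 0.040 without the top cell) and, without the top cell, Hspa1b (0.91), Hbb-bs (1.75) and Hba-a2 (1.97). Beyond what fewer cells or genes bring by construction, the cause was not tested. The raised floor, few cycle UMIs, top cell and cycle limits were chosen after seeing the data. Precision is set by 1 library a group and by 381 and 417 cells.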
